A study of Mus musculus with 15 samples.

Results

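The 13 genes described here are the rows of the count table whose symbol begins with mt-, the prefix of genes encoded by mitochondrial DNA, and they were 13 of 35373 genes in the table. All 13 encode proteins. The ribosomal and transfer RNA genes of the same genome were not analysed here. RNA sequencing was done on intradermal adipocytes, the fat cells of the skin, isolated from mouse dorsal skin, and the 15 libraries are labelled as biological replicates of 4 groups. Controls at postnatal day 23 (P23, n = 3) and P26 (n = 3) are labelled WT (+/+; Rosa26rtTA/Rosa26rtTA; TetOBcat/+) and therefore carry the doxycycline-dependent activator and the β-catenin transgene but no Cre. The Wnt groups carry EngrailedCre/+ with the same Rosa26rtTA/Rosa26rtTA and TetOBcat/+ alleles, and had 2 days of Wnt activation at P23 (n = 4) or 5 days at P26 (n = 5). All mice, controls included, were given doxycycline, at 6 g/kg in the food and 2 mg/mL in the drinking water. EngrailedCre acts in the lineage of Engrailed-expressing cells, so the transgene is not limited to adipocytes by its driver.

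Mitochondrial DNA is a small circle whose protein genes all encode core subunits of the oxidative phosphorylation system, while the nucleus encodes every other subunit. Both strands are transcribed as long RNAs by the polymerase Polrmt with Tfam and Tefm, and these RNAs are cut, mainly at the transfer RNAs between the genes, into mRNAs that mostly receive short poly(A) tails. The share of such transcripts in a sample is used in the field both as a trait of a tissue and as a sign of how the sample was handled. White adipocytes rely on mitochondria for fatty acid synthesis and breakdown, and brown adipocytes are packed with them.

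Total counts per library ran from 11383421 to 38501753, and 13027 to 16663 genes had a count. The library labelled 2-day Wnt replicate 1 is listed as a control in the authors' deposited sample sheet, against its title and genotype. Its library name ends in C, like those of all controls, whereas the names of the other Wnt libraries end in W. The library is kept in the group of its title, and results that turn on it are also given without it. It held hair follicle markers at a summed 4110 CPM (counts per 1000000 counts of the library), where the highest of the remaining 2-day libraries held 43.4 CPM. P26 control replicate 1 held keratinocyte markers at a summed 9069 CPM, where the remaining P26 controls held 932 and 933 CPM, and it had the lowest library weight in limma-voom, 0.174. The adipocyte marker sum was 17703 CPM in the first of these libraries and 15132 CPM in the second, whereas it was 10975 CPM in 5-day replicate 5, 21736 CPM in 5-day replicate 1 and at least 43289 CPM in all others.

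The 13 genes together took 3.69% to 31.7% of all counts in a library. In the P23 controls their share was 8.90%, 5.30% and 9.36%, with a mean of 7.85% ± 2.23 (SD, n = 3). In the 2-day Wnt libraries it was 31.7%, 8.37%, 11.3% and 19.4%, with a mean of 17.7% ± 10.4 (n = 4), or 13.01% ± 5.69 (n = 3) without replicate 1. At P23 the groups overlapped, because 2-day replicate 2 lay below control replicates 1 and 3. In the P26 controls the share was 3.69%, 7.93% and 4.27%, with a mean of 5.30% ± 2.30 (n = 3). In the 5-day Wnt libraries it was 16.6%, 12.3%, 12.2%, 12.1% and 9.20%, with a mean of 12.5% ± 2.63 (n = 5). At P26 the groups did not overlap, and the lowest 5-day library, replicate 5, stood above the highest control, replicate 2. Wilson 95% intervals of these shares reached at most 0.022 percentage points to either side, which covers counting error only and is far below the spread between libraries.

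The mean log2 share was 1.03 higher in the 2-day group and 1.29 higher in the 5-day group than in the controls of the same age. No p-value is given for a sum over chosen genes. With the counts of all other genes as the denominator these differences were 1.20 and 1.41. The 2-day difference was 0.68 without replicate 1 and 0.17 when that library was moved to the controls as in the sample sheet. The 5-day difference was 1.07 without P26 control replicate 1. In bulk libraries such as these, fewer cells of a type and less RNA per cell cannot be told apart.

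**Figure D1:**
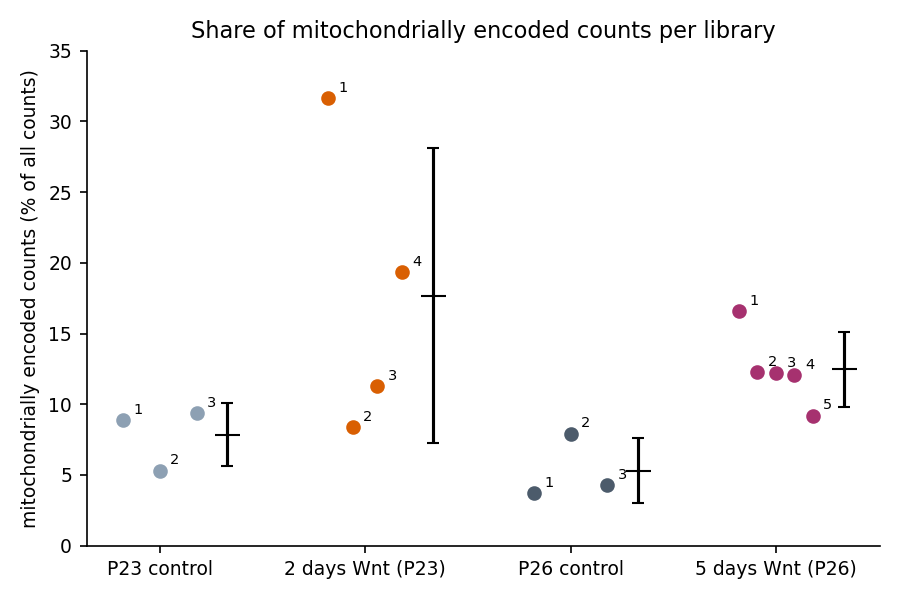
Share of all counts on the 13 mitochondrially encoded genes (y axis, percent) in each of the 15 libraries (points, numbered by replicate) of the 4 groups (x axis), with the mean ± SD of each group as a bar. The 5 points at 5 days lie between 9.20% and 16.6%, all above the P26 controls, while the 2-day points spread from 8.37% to 31.7% and overlap the P23 controls.

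The most abundant of the genes was mt-Cytb (ENSMUSG00000064370, GRCm38 chromosome M, 14145 to 15288, plus strand), which encodes cytochrome b, the only mitochondrially encoded subunit of complex III. It had the highest count of any gene in 11 of the 15 libraries. Its CPM was 36584, 18487 and 40030.2 in the P23 controls and 146783, 30420.5, 47475 and 88028 in the 2-day libraries. The 2-day values lay above all controls except in replicate 2. The P26 controls held 15864, 30678.5 and 14824 CPM. Levels after 5 days of induction were 77523, 51952, 53842, 54377 and 41897.5 CPM. Here no 5-day library reached down to a control.

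Complex I, the NADH dehydrogenase that feeds electrons into the chain, has 7 of its subunits among the 13 genes (mt-Nd1 to mt-Nd6 and mt-Nd4l), and they made up 44.2% to 54.8% of the mitochondrial counts. The CPM of mt-Nd1 (ENSMUSG00000064341, chromosome M, 2751 to 3707, plus strand) was 17566, 13942 and 19386 in the P23 controls and 61133, 23069, 21083 and 36282 in the 2-day libraries. All 2-day libraries were above all P23 controls. At P26 it was 6189, 17145.5 and 10819.7 in the controls and 35988.5, 22390.3, 21880.5, 21597 and 16553.5 in the 5-day libraries, where replicate 5 lay below control replicate 2. Over the 15 libraries mt-Nd2 ranged from 2694 to 40644 CPM, mt-Nd4 from 3431 to 30338 CPM and mt-Nd5 from 2511 to 11414 CPM. The lowest of these values came from P26 controls and the highest from 2-day replicate 1.

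mt-Nd6 (chromosome M, 13552 to 14070) is the only protein gene on the minus strand, overlaps the end of mt-Nd5 by 14 bases and ranged from 846.8 to 3294 CPM. The strand setting of the authors' counting is not given in the sources used here, so reads of mt-Nd6 and of RNA from the opposite strand cannot be told apart. Its letters set it apart as well, with 28.1% G and 6.0% C in the sense strand, where the other 12 genes held 5.9% to 16.1% G and 22.1% to 29.97% C. The 2 remaining complex I genes, mt-Nd3 and mt-Nd4l, were far lower and are described with the other low genes.

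Complex IV, cytochrome c oxidase, has its core subunits encoded by mt-Co1, mt-Co2 and mt-Co3, which took 7.22% to 15.2% of the mitochondrial counts, nearly all of it on mt-Co1. The CPM of mt-Co1 was 9464, 6256 and 7832 in the P23 controls and 22671, 12613, 11597 and 19366 in the 2-day libraries. All 2-day values were higher than all controls. At P26 it was 3997, 7437 and 4384 in the controls and 14585, 12009, 11256, 11024 and 7303 in the 5-day libraries, and 5-day replicate 5 lay just below control replicate 2. The ATP synthase subunits encoded by mt-Atp6 and mt-Atp8, whose reading frames overlap by 43 bases, took 0.0654% to 0.122% of the mitochondrial counts. mt-Atp6 was at 56.1, 50.5 and 52.9 CPM in the P23 controls and at 182.2, 75.4, 70.6 and 139.6 CPM in the 2-day libraries. It was at 30.7, 40.6 and 36.0 CPM in the P26 controls and at 133.5, 71.0, 85.5, 68.7 and 47.9 CPM in the 5-day libraries. mt-Atp6 was the only member whose Wnt libraries all lay above all controls at both ages. Of all genes tested, 2.2% had this pattern at 2 days and 3.37% at 5 days, and the share with it at both ages was not counted.

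**Figure D2:**
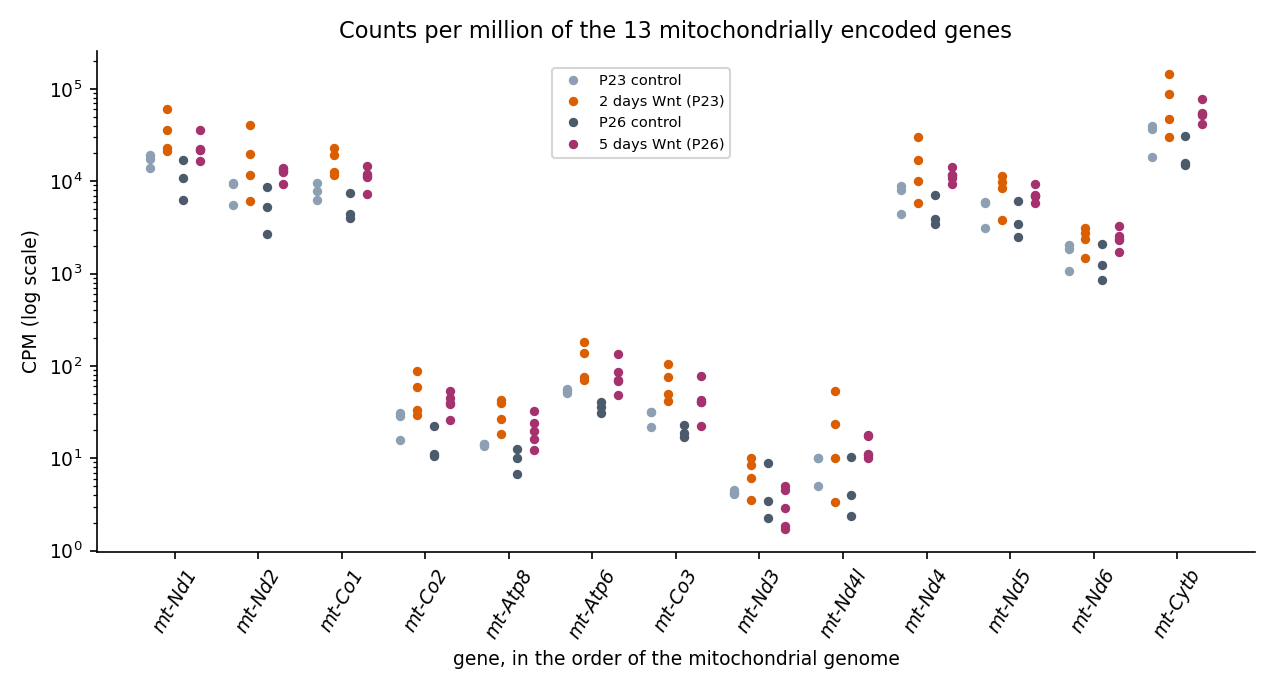
CPM of each of the 13 genes (y axis, log scale) in every library (points, coloured by group), with the genes in the order of the mitochondrial genome (x axis). Within each gene the points of a Wnt group mostly lie above those of the controls of the same age, and 6 neighbouring genes from mt-Co2 to mt-Nd4l lie well below the other 7.

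Set on a common scale of CPM per kb of gene length, the genes fell into a high and a low set. The median over the 15 libraries was 36624 CPM per kb for mt-Cytb, 22030.1 for mt-Nd1, 9178 for mt-Nd2, 7135 for mt-Co1, 6790.2 for mt-Nd4, 4009 for mt-Nd6 and 3326 for mt-Nd5. It was 100.8 CPM per kb for mt-Atp6, 78.6 for mt-Atp8, 51.3 for mt-Co3, 45.4 for mt-Co2, 34.2 for mt-Nd4l and 12.1 for mt-Nd3. In all 15 libraries every gene of the high set stood above every gene of the low set, and the lowest of the high set exceeded the highest of the low set by 19.002 to 54.1 times. The 6 low genes together held 0.131% to 0.229% of the mitochondrial counts. All 13 genes passed the filter on low counts, and the lowest count of any of them in any library was 21, for mt-Nd3.

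Within the sets the order was firm for some neighbours only. mt-Cytb was above mt-Nd1 per kb, and mt-Nd1 above mt-Nd2, in all 15 libraries, and mt-Nd2 was above mt-Co1 in 14. mt-Co1 and mt-Nd4 had no order, since mt-Co1 was the higher in 6 of the libraries and their ratio had a median of 1.00. mt-Nd6 was above mt-Nd5 in 12 libraries, with ratios per kb of 0.951 to 1.36, and mt-Co3 above mt-Co2 in 8.

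The 6 low genes are neighbours. They lie wholly inside a stretch of the mitochondrial genome, bases 6381 to 11042, that has a copy in the nuclear genome: in the GENCODE M21 annotation of GRCm38, a run of 7 pseudogenes on chromosome 1 (24611535 to 24616197, 4663 bases, minus strand) holds the same genes in the same order. Over their aligned lengths the copies of mt-Co2 (Gm28661), mt-Atp6 (Gm10925), mt-Co3 (Gm28437), mt-Nd4l (Gm10222) and mt-Nd4 (Gm28439) were 100% identical to the mitochondrial gene, that of mt-Nd3 (Gm28438) was 99.7% and that of mt-Co1 (Gm29216) was 99.8% identical. Of all 50-base windows of a gene, 100% for mt-Co2, 99.9% for mt-Co3, 99.5% for mt-Atp6, 98.8% for mt-Nd4l and 97.99% for mt-Nd3 occurred letter for letter in another annotated transcript. mt-Co1 and mt-Nd4 lie partly inside the stretch, with 51.1% and 62.2% of windows shared with any other transcript. For mt-Co1 these are not all from the run, whose copy aligned to 31.3% of the gene. Another pseudogene, Gm13340 on chromosome 2, aligned to 100% of mt-Co1 at 97.6% identity. mt-Nd2, mt-Nd5, mt-Nd6, mt-Nd1 and mt-Cytb lie outside the stretch, with 8.2%, 7.6%, 0%, 0% and 0%. mt-Atp8 shared 0% with annotated transcripts, but most of it lies between mt-Co2 and mt-Atp6. The gap there is 230 bases, which the nuclear run matches with an unannotated gap of 233 bases. The last 43 bases of mt-Atp8 lie inside mt-Atp6, an overlap shorter than the 50-base window.

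None of the 7 copies was among the rows analysed here. Whether reads that match both places were left out of the deposited counts was not tested, and the stretch was compared with the levels after these had been seen. The levels of the 6 genes, and comparisons of level between them and the other 7, are therefore uncertain. So are the levels of mt-Co1 and mt-Nd4, which lie partly inside the stretch, and their places in the order of the high set. The changes of the 6 low genes between groups are compared with those of the high set below.

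The start of mt-Co2 (chrM:7013-7132, plus strand) and of its copy (chr1:24615446-24615565, minus strand) are shown because a read from either place is the same string. The sequences in this paragraph and the next are from the GENCODE M21 transcripts of GRCm38, read 5′ to 3′.
mt-Co2: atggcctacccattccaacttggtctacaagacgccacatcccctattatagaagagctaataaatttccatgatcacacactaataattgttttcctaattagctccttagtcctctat
Gm28661: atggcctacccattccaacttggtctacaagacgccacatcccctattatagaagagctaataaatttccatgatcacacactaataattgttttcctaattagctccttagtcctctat
The starts of mt-Nd3 (chrM:9459-9578, plus strand) and Gm28438 (chr1:24613000-24613119, minus strand) hold the only mismatch of that pair, in capitals, which falls in the first codon of the gene.
mt-Nd3: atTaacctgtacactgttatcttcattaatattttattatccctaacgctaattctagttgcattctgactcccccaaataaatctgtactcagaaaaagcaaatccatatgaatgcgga
Gm28438: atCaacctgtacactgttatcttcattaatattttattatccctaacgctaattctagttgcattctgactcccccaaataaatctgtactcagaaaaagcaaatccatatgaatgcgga

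For the 2 genes without any shared window that have an annotated copy, gene and copy differ at many places. A stretch of mt-Cytb (chrM:14645-14764, plus strand) and of Gm11410 on chromosome 4 (chr4:80004489-80004608, plus strand), 92.9% identical over the whole alignment, differ at the 10 positions in capitals.
mt-Cytb: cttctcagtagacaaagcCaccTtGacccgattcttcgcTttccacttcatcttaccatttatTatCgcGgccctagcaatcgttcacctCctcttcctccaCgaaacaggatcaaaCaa
Gm11410: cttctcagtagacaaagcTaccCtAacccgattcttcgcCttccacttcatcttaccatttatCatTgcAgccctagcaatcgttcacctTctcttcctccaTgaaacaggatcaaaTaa
A stretch of mt-Nd6 (chrM:13751-13870, minus strand) and of Gm11408 (chr4:80003595-80003714, minus strand), 93.6% identical, differ at the 13 positions in capitals.
mt-Nd6: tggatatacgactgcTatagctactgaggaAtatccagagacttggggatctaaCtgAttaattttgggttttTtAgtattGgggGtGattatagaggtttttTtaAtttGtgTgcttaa
Gm11408: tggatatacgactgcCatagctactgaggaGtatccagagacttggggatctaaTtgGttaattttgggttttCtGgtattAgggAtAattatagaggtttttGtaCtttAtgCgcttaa
No 50-base window of these stretches is the same in gene and copy, in contrast to mt-Co2.

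The ends of some of the genes lack a full stop codon. mt-Co3, mt-Nd4 and mt-Cytb end in a lone T after the last full codon, and in such genes the tail is known to complete the stop codon, while mt-Nd1 carries a full TAG. The last 30 bases are given with this end in capitals, for mt-Nd1 (chrM:3678-3707), mt-Co3 (chrM:9361-9390), mt-Nd4 (chrM:11515-11544) and mt-Cytb (chrM:15259-15288), all on the plus strand.
mt-Nd1: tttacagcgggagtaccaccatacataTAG
mt-Co3: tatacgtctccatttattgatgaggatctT
mt-Nd4: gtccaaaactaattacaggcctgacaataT
mt-Cytb: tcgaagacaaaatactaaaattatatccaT
The lone T occurred in genes of both sets, the highest gene mt-Cytb and the low mt-Co3 among them.

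**Figure D3:**
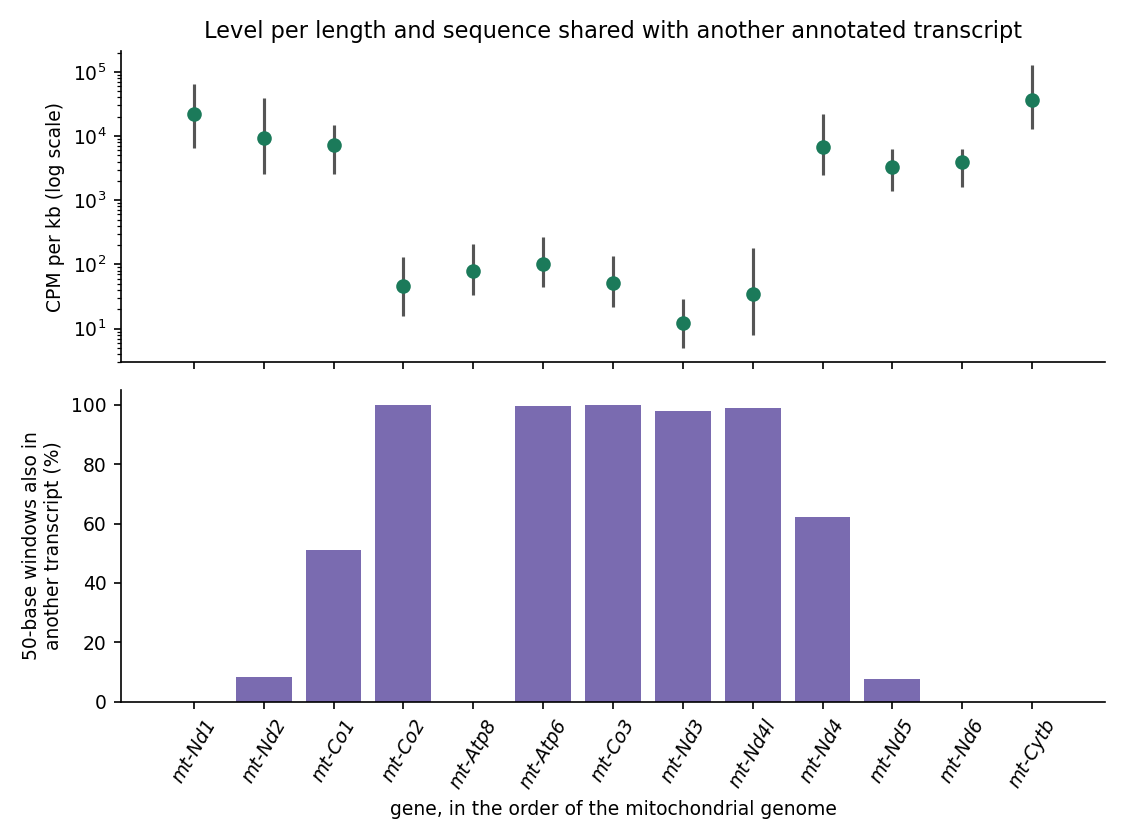
Upper panel: median CPM per kb of gene length over the 15 libraries (points, log scale) with the lowest and highest library (lines). Lower panel: percent of each gene's 50-base windows found in another annotated transcript (bars). The 6 genes with medians of 12.1 to 100.8 CPM per kb are the neighbours inside the stretch copied on chromosome 1, of which mt-Atp8 has no annotated copy.

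The comparison at 2 days asks how transcripts differ after a short activation of β-catenin. All 13 genes had a higher fitted level in the 2-day libraries than in the P23 controls, where 49.4% of the 16935 genes tested were higher, but none passed the test. Their median log2 fold change was 1.17, from 0.60 for mt-Nd6 to 1.497 for mt-Nd4l, against a median of 0 over all genes. edgeR's quasi-likelihood test with Benjamini-Hochberg adjustment over all genes called 0% of them, and the smallest adjusted p of any of the 13 was 0.919. At an unadjusted p under 0.05, 8 of the 13 were higher, against 2.96% of all genes. The 13 genes come from shared long RNAs and mostly moved together from library to library. Counts of them, here and below, are therefore not counts of 13 independent results. For mt-Cytb the log2 fold change was 1.37 ± 0.62 (SE), for mt-Nd2 1.33 ± 0.63, for mt-Co3 1.27 ± 0.45 and for mt-Atp8 1.20 ± 0.47. The 2-day libraries all lay above all P23 controls for mt-Nd1, mt-Co1, mt-Atp8, mt-Atp6 and mt-Co3, 5 of 13, where 2.2% of all genes had such a pattern.

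The 2-day result leaned on the library with conflicting labels. Without 2-day replicate 1 the median log2 fold change of the 13 genes was 0.69, all 13 were still higher, and 1 had an unadjusted p under 0.05. With that library moved to the controls the median was 0.07, 7 of 13 were higher and 0 had such a p in either direction. The count of 8 was also 3 without P23 control replicate 1 or 2, 2 without P23 control replicate 3 or 2-day replicate 4, and 5 without 5-day replicate 2, which enters only through the shared estimate of spread. It was 4 with no filter on low counts, and 4 without both 2-day replicate 1 and P26 control replicate 1. DESeq2 called 0 of the 13 (149 of all genes, 0.88%) and gave 11 an unadjusted p under 0.05, and limma-voom with library weights called 0 (0 of all genes, 0%) and gave 7 such a p. The share of all genes at such a p in these alternative runs is not given, here, at 5 days or in the average.

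The comparison at 5 days asks the same of a longer activation. Of the 13 genes, 12 had a higher fitted level at 5 days than in the P26 controls, where 51.6% of all genes were higher, and again none passed the test. The median log2 fold change was 1.11 against 0.03 over all genes. edgeR called 0% of all genes, and among the 13 the smallest adjusted p was 0.626, for mt-Co2. At an unadjusted p under 0.05, 7 of 13 were higher, against 4.02% of all genes. The log2 fold change was 1.45 ± 0.45 (SE) for mt-Co2, 1.44 ± 0.60 for mt-Cytb, 1.23 ± 0.55 for mt-Nd4 and 1.11 ± 0.60 for mt-Nd2. The 5-day libraries all lay above all P26 controls for mt-Nd2, mt-Co2, mt-Atp6, mt-Nd4 and mt-Cytb, 5 of 13, against 3.37% of all genes.

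mt-Co2 had the largest 5-day value of the 13, and it stood at 11.02, 22.5 and 10.6 CPM in the P26 controls and at 53.3, 39.6, 45.0, 38.8 and 25.99 CPM in the 5-day libraries. All 5 lay above all controls. mt-Nd3 was the exception, with 8.92, 2.24 and 3.40 CPM in the P26 controls and 1.84, 2.87, 4.53, 5.01 and 1.72 CPM in the 5-day libraries. Its log2 fold change was -0.43 ± 0.85, no 5-day library exceeded control replicate 1, and the value was 0.03 without that control. The other 12 genes were higher at 5 days in every alternative run.

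The 5-day count also moved with single libraries. Without P26 control replicate 1 the median log2 fold change was 0.79 and 2 of 13 had an unadjusted p under 0.05. The count of 7 was 12 without P26 control replicate 2, 4 without P26 control replicate 3 or 5-day replicate 3 and 3 without 5-day replicate 1. It was 3 with the groups of the sample sheet, and 3 without both 2-day replicate 1 and P26 control replicate 1. DESeq2 called 0 of the 13 (200 of all genes, 1.18%) with 11 at an unadjusted p under 0.05, and limma-voom with library weights called 0 (226 of all genes, 1.33%) with 9.

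**Figure D4:**
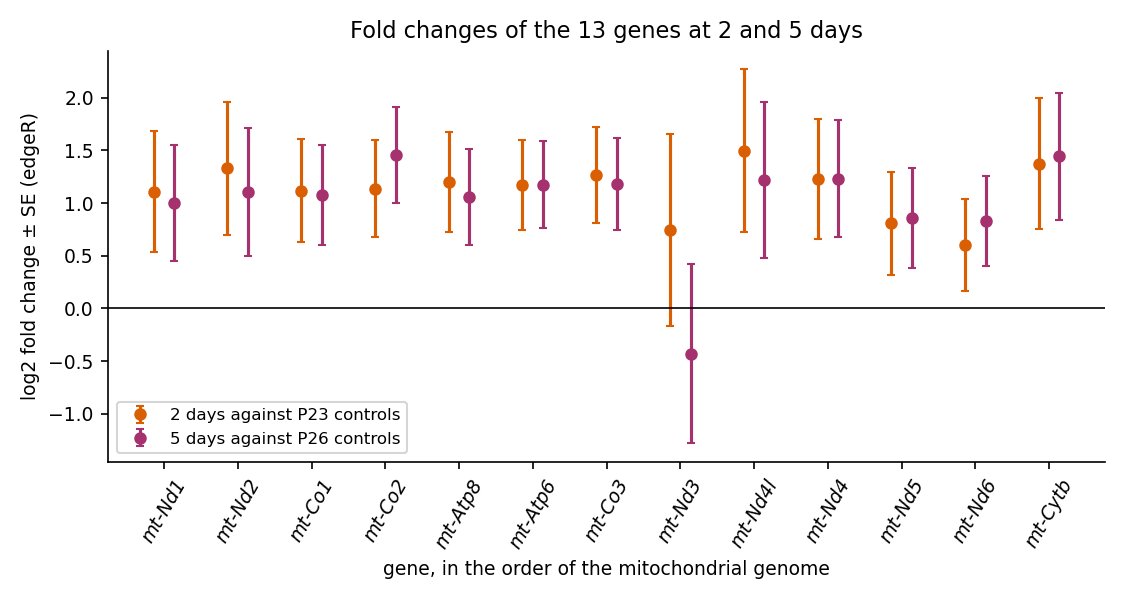
Log2 fold change of each gene against controls of the same age (y axis, points ± SE from edgeR) after 2 days and 5 days, with the genes in genome order (x axis). At 5 days 12 of 13 genes lie between 0.83 and 1.45 and mt-Nd3 at -0.43, and no gene passed the adjusted test at either age.

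Averaged over both ages, all 13 genes were higher in the Wnt libraries, where 51.5% of all genes were, with a median log2 fold change of 1.17 against 0.02. edgeR called 0% of all genes, the smallest adjusted p of the 13 was 0.307 (mt-Co2 and mt-Atp6), and 12 of 13, all but mt-Nd3, had an unadjusted p under 0.05, against 5.07% of all genes. In DESeq2 9 of the 13 rose at an adjusted p under 0.05, where 1.42% of all genes did. The 9 were mt-Nd1, mt-Nd2, mt-Co1, mt-Co2, mt-Atp8, mt-Atp6, mt-Co3, mt-Nd4 and mt-Cytb, with log2 fold changes of 1.09 to 1.44. The DESeq2 calls turned on the same libraries, in fits chosen after seeing the data: 5 of the 13 passed without 2-day replicate 1, 6 without P26 control replicate 1, 2 (mt-Co1 and mt-Cytb) without both, and 0 with the groups of the sample sheet. In limma-voom with library weights 0 of 13 passed, against 0.065% of all genes, and the median was 0.88, and with 2-day replicate 1 among the controls the edgeR median was 0.51 with 0 of 13 at an unadjusted p under 0.05. Without 2-day replicate 1 the edgeR median was 0.95 and 10 of 13 had such a p. Without both 2-day replicate 1 and P26 control replicate 1, an alternative chosen after seeing the data, the median was 0.80 and 9 of 13 had such a p.

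The high and low sets had fold changes of similar size. The median log2 fold change was 1.12 in the 7 high genes and 1.19 in the 6 low genes at 2 days, and 1.08 and 1.18 at 5 days. Without 2-day replicate 1 the 2-day medians were 0.68 and 0.80, and without P26 control replicate 1 the 5-day medians were 0.71 and 0.86. The difference between the 5-day and the 2-day effect had a median of -0.04 over the 13 genes (0.31 without 2-day replicate 1, -0.30 without P26 control replicate 1 and 1.03 with the sample sheet's groups), and no gene among all tested was called for it in edgeR (smallest adjusted p 0.81; 0 of 13 at an unadjusted p under 0.05, against 5.72% of all genes; 149 of all genes, 0.88%, and 0 of 13 in DESeq2, 0 in limma-voom). The SE of this difference was 0.56 to 1.24 per gene, so that a difference of that size would not have been seen.

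The controls themselves differed with age in the other direction. All 13 genes were lower in P26 than in P23 controls (12 with library totals alone as the scaling), where 48.4% of all genes were higher, with a median log2 fold change of -0.64 against -0.01. None was called by edgeR, the smallest adjusted p was 0.709 for mt-Co2 (-0.87 ± 0.48 SE), and 0 of 13 had an unadjusted p under 0.05, against 6.98% of all genes. DESeq2 and limma-voom called 0 of the 13 as well (286 and 134 of all genes, 1.69% and 0.791%). The P26 controls all lay below all P23 controls for mt-Atp8 and mt-Atp6, 2 of 13, against 5.18% of all genes. The size of the age difference rested on single libraries: the median was -0.35 without P26 control replicate 1 and -1.11 without P26 control replicate 2, and the mean log2 share of all counts was 0.61 lower at P26 with all controls and 0.39 lower without P26 control replicate 1. With 2-day replicate 1 among the P23 controls, as in the sample sheet, the median was -1.41. In that fit 10 of 13 were lower at an unadjusted p under 0.05, as were 385 of all 16935 genes. The 5-day effect is thus measured from control libraries whose fitted level was lower than that of the controls at 2 days.

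The make-up of the mitochondrial counts varied less than their sum. mt-Cytb took 34.7% to 46.8% of them, mt-Nd1 16.8% to 27.6%, mt-Nd2 7.30% to 12.8% and mt-Nd4 7.03% to 10.2%. The sum itself ranged over the 3.69% to 31.7% of all counts given above. mt-Nd5 and mt-Nd6 took the smallest part in 2-day replicate 1, the library with the highest share (3.61% and 0.976%), and the largest part in P26 control replicate 1, the library with the lowest (9.27% and 3.38%). Per kb, mt-Nd6 stood at 0.117 ± 0.00949 of mt-Cytb in the P23 controls (SD, n = 3), 0.0831 ± 0.0308 at 2 days (n = 4), 0.150 ± 0.0237 in the P26 controls (n = 3) and 0.0987 ± 0.0247 at 5 days (n = 5). All 2-day libraries lay below all P23 controls in this ratio, whose 2-day mean without replicate 1 was 0.0953 ± 0.0229 (n = 3). The margin was narrow, with the highest 2-day library at 0.1095 and the lowest P23 control at 0.1104. The lowest ratio of all, 0.0464, was in 2-day replicate 1. Counting that library as a control, as in the sample sheet, would make the groups overlap. At P26, 5-day replicate 2 (0.140) lay above the lowest control (0.126). The ratio of mt-Nd4 to mt-Cytb also separated at P23, with 0.161 to 0.176 at 2 days and 0.182 to 0.200 in the controls. Counting 2-day replicate 1 as a control would end this separation as well. At P26 the ratio of mt-Nd4 to mt-Cytb overlapped (0.152 to 0.185 at 5 days, 0.180 to 0.220 in the controls). The ratios of mt-Nd1, mt-Nd2, mt-Co1 and mt-Nd5 to mt-Cytb overlapped at P23. The part taken by mt-Nd3 varied 21.7-fold, from 0.00111% in 5-day replicate 1 to 0.0242% in P26 control replicate 1, on counts that were the lowest of the 13.

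**Figure D5:**
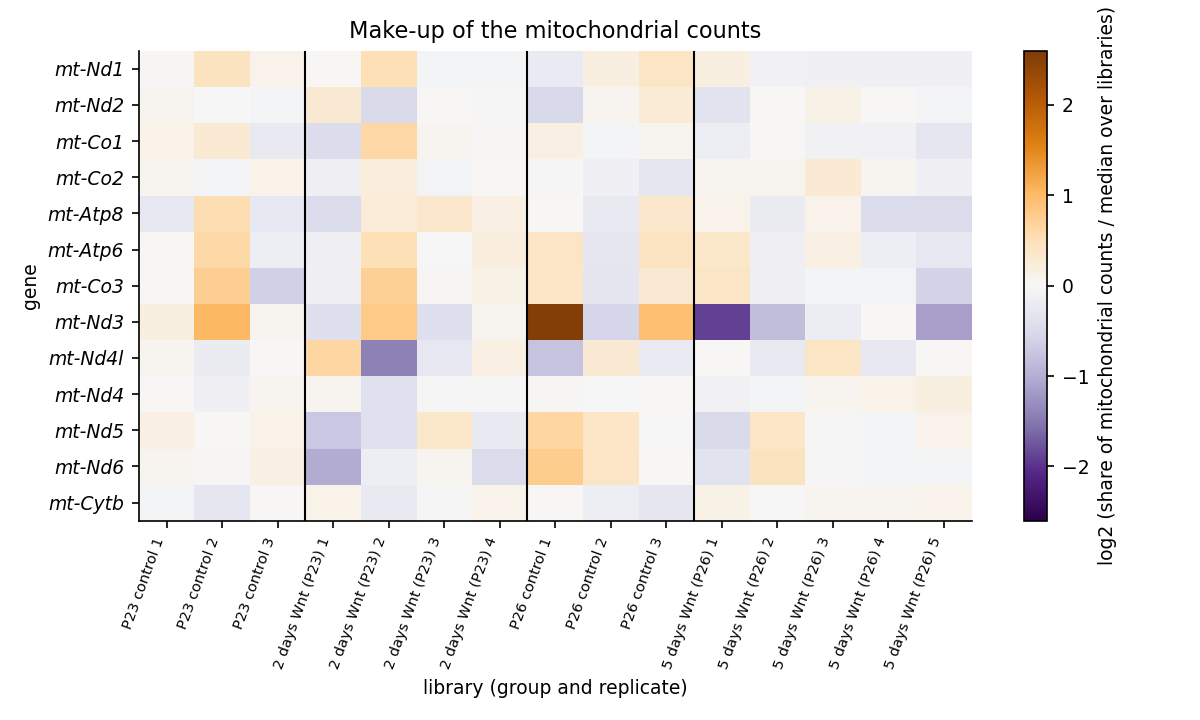
Share of the mitochondrial counts taken by each gene (rows) in each library (columns, with lines between the groups), as the log2 ratio to that gene's median over the 15 libraries (colour scale). Most cells lie near 0, mt-Nd3 departs most, with its part 21.7 times as large in P26 control 1 as in 5-day replicate 1, and mt-Nd5 and mt-Nd6 are low in 2-day replicate 1.

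In the Wnt comparisons nuclear genes of the same system were mostly lower where the mitochondrial ones were higher, though no gene of either kind passed the edgeR test. Of 37 nuclear respiratory chain subunits, 36 had a lower fitted level at 2 days (median log2 fold change -0.31) and 33 at 5 days (-0.43), and none was called by edgeR, DESeq2 or limma-voom. Averaged over both ages 36 were lower (median -0.38), 4 of them with an unadjusted p under 0.05, where 2.78% of all genes were. That count was 1 without P23 control replicate 2 or 3, 2-day replicate 1 or 3 or P26 control replicate 3, 2 without 2-day replicate 4 or 5-day replicate 2, 13 without 2-day replicate 2, and 1 with the sample sheet's groups. The 2-day median was -0.11 without P23 control replicate 2, -0.20 without 2-day replicate 3 and -0.66 without 2-day replicate 2, and the 5-day median was -0.12 without P26 control replicate 3 and -0.25 without 5-day replicate 5. With the level of Y-linked transcripts as a covariate the medians were -0.15 at 2 days, -0.19 at 5 days and -0.20 averaged, and the count was 0. The median of the list stayed below 0 in every alternative run. The lowest p belonged to Uqcrb, a complex III subunit, at -0.69 ± 0.27 (SE; adjusted p = 0.494), and to Cox7a2, a complex IV subunit, at -0.57 ± 0.25 (adjusted p = 0.582). Uqcrb was at 101.2, 64.3 and 70.5 CPM in the P26 controls and at 50.8, 29.6, 32.02, 42.8 and 15.96 CPM in the 5-day libraries. No 5-day library reached a control. Uqcrb was named for its low p in these same data, and the share of all genes with this pattern is not given here. Cytochrome c (Cycs), which carries electrons from complex III to complex IV, was the only one higher on average, at 0.24 ± 0.98. The summed level of the list was 9918 to 12973 CPM in the P23 controls, 6702 to 13736 CPM at 2 days, 7660.1 to 9852 CPM in the P26 controls and 3321 to 8261 CPM at 5 days. Between the control ages both kinds of gene went the same way. Every subunit of the list except Uqcrb (0.49 ± 0.42 SE) had a lower fitted level in P26 than in P23 controls, as the mitochondrial genes had, and edgeR called none.

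Genes of mitochondrial transcription and RNA handling also gave no calls. Of 28 tested, 21 were lower on average over both ages, with a median of -0.17, and 0 had an unadjusted p under 0.05 (at most 2 in any alternative run). The mitochondrial RNA polymerase gene Polrmt stood at -0.53 ± 0.66, the transcription and packaging factor Tfam at -0.07 ± 0.35, and Lrpprc, which with Slirp binds and stabilises mitochondrial mRNAs, at -0.58 ± 0.34. Slirp itself stood at -0.43 ± 0.25 and Trmt10c, a subunit of the enzyme that cuts transfer RNAs from the precursor at their 5′ ends, at -1.17 ± 0.65. Its nuclease subunit Prorp stood at 0.40 ± 0.37, and Tefm, the elongation factor, at 0.74 ± 1.22. Adjusted p in edgeR was at least 0.707 for each of these genes.

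Among 7 regulators of mitochondrial biogenesis, the co-activator Ppargc1a was at 8.78, 2.36 and 10.4 CPM in the P23 controls and at 1.56, 0.0429, 1.52 and 0 CPM at 2 days, a log2 fold change of -3.13 ± 1.49 (edgeR adjusted p = 0.919). All 2-day libraries lay below all controls, at low levels throughout, and the share of all genes with this pattern is not given here. At 5 days the log2 fold change of Ppargc1a was 1.08 ± 1.42, and averaged over both ages it was -1.02 ± 0.98. The receptors Esrra and Ppara stood at -0.36 ± 0.37 and 0.07 ± 0.90, and the factor Gabpa at 0.27 ± 0.26. The list gave no calls in edgeR, DESeq2 or limma-voom. Gm11808, listed as a possible nuclear copy, was at 20.3 to 119.5 CPM, but its transcript matched none of the 13 genes.

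Markers of other cells differed between the same groups, and their part in the mitochondrial result was not tested. The 10 stromal markers, led by the collagen genes Col3a1 and Col1a1, were higher at both ages (10 of 10 each, median log2 fold change 1.12 at 2 days and 0.83 at 5 days, none called). Their sum was 10084 to 13196 CPM in the P23 controls, 11194 to 35289 CPM at 2 days, 9437 to 30711 CPM in the P26 controls and 20256 to 112788 CPM at 5 days. Of all libraries, 5-day replicate 5 had the highest stromal sum and 5-day replicate 1 the next, 47055 CPM, and these were the libraries with the lowest and the highest mitochondrial share of that group, 9.20% and 16.6%. 5-day replicate 1 also had the highest erythroid sum. Endothelial and mural markers were higher in 9 of 9 at both ages (sums of 143.8 to 919.3 CPM in P23 controls, 57.1 to 1328 CPM at 2 days, 206.4 to 573.5 CPM in P26 controls and 466.0 to 2410 CPM at 5 days), Schwann cell markers in 6 of 7 and 7 of 7 (422.3 to 523.9, 235.3 to 1073, 258.4 to 486.0 and 280.8 to 1598 CPM) and erythroid genes in 5 of 5 at both (289.3 to 939.6, 297.0 to 1843, 125.2 to 358.7 and 255.5 to 1973 CPM). The 12 adipocyte markers were lower in 11 at 2 days (median -0.44) and in 12 at 5 days (-0.35), with sums of 45841 to 69518 CPM in the P23 controls, 17703 to 65815 CPM at 2 days, 15132 to 63246 CPM in the P26 controls and 10975 to 55235 CPM at 5 days. Without 2-day replicate 1, at 2 days 9 of 10 stromal markers (median 0.80), 7 of 9 endothelial and mural, 5 of 7 Schwann cell and 4 of 5 erythroid genes were higher and 8 of 12 adipocyte markers lower (-0.31). Without P26 control replicate 1, at 5 days 9 of 10 stromal markers were higher (0.60) and 12 of 12 adipocyte markers lower (-0.77).

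Of the tissues known for many mitochondria, skeletal muscle gave marker sums of 265.3 to 410.5 CPM in the P23 controls and 247.9 to 1269 CPM at 2 days, with the maximum in replicate 1, and 243.2 to 1341 CPM in the P26 controls and 101.8 to 542.5 CPM at 5 days. Its 12 markers were higher in 12 at 2 days and in 2 at 5 days. Ucp1, which defines brown adipocytes, had 0 counts in all P26 libraries. It was at 20.5 CPM in 2-day replicate 2, the 2-day library with the lowest mitochondrial share, and at most 2.89 CPM elsewhere. The brown adipocyte list summed to 63.4 to 104.9 CPM in P23 controls, 42.5 to 260.2 CPM at 2 days, 36.6 to 69.3 CPM in P26 controls and 25.2 to 55.2 CPM at 5 days. Keratinocyte markers were higher in 6 of 10 at 2 days and in 0 at 5 days, hair follicle markers in 7 of 7 and 0, sebaceous markers in 5 of 7 and 2, and leukocyte markers in 10 of 10 and 4. Without 2-day replicate 1 the 2-day counts were 5 of 12 for skeletal muscle, 2 of 10 for keratinocyte, 3 of 7 for hair follicle, 4 of 7 for sebaceous and 9 of 10 for leukocyte markers. Without P26 control replicate 1, 8 of 8 hair follicle markers tested were higher at 5 days. None of the genes in these lists was called in edgeR.

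The sexes of the mice were unevenly spread over the groups. Y-linked transcripts summed to 42.5 to 164.6 CPM in P23 control replicate 1, 2-day replicates 2 to 4, P26 control replicate 1 and all 5-day libraries, and to at most 1.36 CPM elsewhere, where Xist was at 9.98 to 78.0 CPM. Among the libraries with Y-linked transcripts the mitochondrial share was 8.90% and 3.69% in the controls and 8.37% to 19.4% in the Wnt libraries. With the log2 level of Y-linked transcripts as a covariate the median log2 fold change of the 13 genes was 1.31 at 2 days, 1.58 at 5 days and 1.45 averaged, and edgeR called 0 of them. At P23 the control with Y-linked transcripts was at 8.90% and the 2-day libraries with them at 8.37%, 11.3% and 19.4%, while the controls without them were at 5.30% and 9.36% and the only such 2-day library, replicate 1, at 31.7%. At P26 the only control with them was replicate 1, at 3.69%, and no 5-day library lacked them.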

How the data were processed

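The authors' deposited table of raw counts per gene was used as deposited, with 1 column per library, and columns were matched to samples by the library names in the labels. RNA was isolated with RNeasy kits and libraries were made from 100 ng of total RNA with the Universal Plus mRNA-Seq kit, per the labels. Tools listed in the submitters' processing notes are Cufflinks 2.2.1, DESeq2 1.40.1, SAMtools 1.9 and Trimmomatic 0.39, with mm10 (GRCm38) as the build. How reads were aligned and counted, and whether strand was used, is not given in the sources used here. Nor need 1 count be 1 molecule. Other deposited tables were not used.

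The 13 genes and all lists were chosen with earlier results of these data known. CPM is counts per 1000000 counts of the library, and per kb values divide it by gene length. Genes were kept with filterByExpr by group (16935 tested, 18438 removed), scaled by TMM (factors 0.847 to 1.41) and fitted in edgeR 4.0.16 (R 4.3.3) with a 4-group robust quasi-likelihood model over all 15 libraries (11 residual degrees of freedom). Two-sided p-values were adjusted by the Benjamini-Hochberg method over all genes tested (threshold 0.05). SE is the log2 fold change divided by the square root of F. DESeq2 1.42.0 and limma 3.58.1 (voom with library weights) were alternatives, with other size factors, other filters, library totals without the mt- rows, a replicate block, the sample sheet's groups, a Y-linked covariate (prior 0.5 CPM) and each library left out. The fitting code was tested on simulated counts. Sharing of sequence was searched in 141730 other GENCODE M21 transcripts with exact windows of 50, 75 and 100 bases and with blastn 2.17.0. Every mt- gene is named with values. Of the nuclear lists, Polrmt, Tfam, Lrpprc and Ppargc1a are always named, and per list the 2 genes with the smallest p in each direction in the average over both ages. Of marker lists only genes that a result turns on are named, although the rule allowed the 2 most abundant of each.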

Additional observations from a re-analysis of the deposited data

Results flagged for a closer look

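Of 28 sets of values in groups of 4 or 5 libraries, 1 held a library far from the others, where chance alone gives about 1 in 20. It was mt-Nd2 at 5 days, at 9276 CPM in replicate 5 against 12559 to 13888 CPM in the other 4 libraries, a gap of 0.712 of the range. Replicate 5 also had the lowest mitochondrial share of its group (9.20%), the lowest adipocyte marker sum of all libraries (10975 CPM) and the highest stromal marker sum (112788 CPM). Their part in the low value was not tested.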

How the results depend on the processing

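Of the 1422 results under alternatives, 1354 were classed as the same as in the edgeR fit described above. For a fold change this meant the same direction and side of the threshold. For a count of calls it meant a value within a set factor of the first. For the log2 share it meant the same direction and a move of less than 0.574, the pooled SD. As no named gene passed in that fit, a fold change that only shrank still counted as the same. Under DESeq2 the number of genes called was 149 at 2 days, 200 at 5 days, 321 averaged over both ages, 149 for the difference and 286 between the control ages, and 9 mitochondrial genes were called in the average. In the average DESeq2 called 237 genes, 5 of them mitochondrial, without 2-day replicate 1, 471 and 6 without P26 control replicate 1, 302 and 2 without both, and 242 and 0 with the sample sheet's groups (all 4 chosen after seeing the data). Under limma-voom with library weights 226 genes were called at 5 days, 11 in the average and 134 between the control ages, and its median log2 fold change over all genes at 2 days was -0.15. With 2-day replicate 1 and P26 control replicate 1 both left out (chosen after seeing the data), 4 genes were called at 5 days and 1 in the average. Leaving out each library of the groups compared gave 0 to 4 calls at 5 days and 0 to 3 in the average. For the difference it gave 0 to 2, and between the control ages 0 to 2. The 4, the 3 and both counts of 2 came without P26 control replicate 2, and 5 days had 2 calls without P26 control replicate 1. Without 5-day replicate 5, which is in neither control group, 5 genes were called between the control ages. No mitochondrial gene was among the calls of any edgeR or limma fit. The cause of these differences was not tested.

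With the sample sheet's groups the 2-day difference in log2 share was 0.17, and 6 genes turned lower at 2 days: mt-Nd1 (-0.076), mt-Nd2 (-0.38), mt-Co2 (-0.015), mt-Nd4l (-0.68), mt-Nd4 (-0.23) and mt-Cytb (-0.13). mt-Nd3 at 5 days turned to 0.34 with limma-voom and 0.028 without P26 control replicate 1, alone or with 2-day replicate 1 (-0.712 to 0.028 with 1 library left out), and its average to -0.18 with the sample sheet and -0.002 without P26 control replicate 2 (-0.002 to 0.379). Among the averages of nuclear genes, Polrmt turned to 0.20 with the Y-linked covariate. Tfam turned to 0.053 with limma-voom, 0.062 with the sample sheet and 0.30 with both libraries left out, and with 1 library left out it ran from -0.244 to 0.249, above 0 without P23 or P26 control replicate 1 or 2-day replicate 3. Cycs turned to -0.67, -0.32 and -0.34 under the same 3 settings and ran from -0.056 to 0.459 with 1 library left out, below 0 without 2-day or P26 control replicate 1. Tefm turned to -0.20 and Ppara to -0.75 with the Y-linked covariate, Ppara to -0.30 with limma-voom and with 1 library left out it ran from -0.147 to 0.274, below 0 without P23 or P26 control replicate 3, 2-day replicate 2 or 3 or 5-day replicate 1.

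Whether replicate numbers pair the samples was not settled. Of 6 same-numbered pairs, 2 had correlated deviations above 0.1 (range -0.009 to 0.16). Different-numbered pairs ran from -0.123 to 0.084 and were mostly below 0. With the replicate block, 5 genes were called between the control ages and 0 in each other comparison, 3 and 5 of the 13 genes had an unadjusted p under 0.05 at 2 and 5 days, and Tefm turned to -1.48.

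Depth limited mt-Nd3 most, with as few as 21 counts in a library.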
